A study of Homo sapiens with 10 samples.

Results

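The enzymes that make androgens were examined for histone acetylation in a prostate cancer cell line and its drug-resistant derivative. The genes were the 10 listed steroid enzymes AKR1C1, AKR1C2, AKR1C3, SRD5A1, SRD5A2, HSD3B1, HSD3B2, HSD17B3, CYP17A1 and CYP11A1, out of 20033 protein-coding genes. They were chosen by name and not by a rule on any measured value, with earlier results of these data known. For each gene, all peaks over the gene body and 50 kb to each side were taken. The 10 windows form 7 separate loci of 1148 kb in all, because AKR1C1, AKR1C2 and AKR1C3 lie together, as do HSD3B2 and HSD3B1.

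The parental line, C4-2B, comes from a prostate adenocarcinoma that no longer needs testicular androgen. C4-2BER was derived from C4-2B by continuous exposure to enzalutamide, an antiandrogen drug, and the study describes it as neuroendocrine-like, kept in the drug, and without expression of RB1. It is a single derived line, so the drug, the resistance and anything else that arose in it cannot be told apart. Acetylation of histone H3 at lysine 27 (H3K27ac) and lysine 18 (H3K18ac) was profiled by ChIP-Seq in cells crosslinked with DSG and formaldehyde, with 2 libraries for each mark in each line beside a single input, 10 libraries over both lines. The 2 libraries of a mark and cell line were merged before peaks were called, so each of the 4 peak lists is a single value per region with no replicate error. No test between the cell lines was therefore possible, and all differences below describe these pooled libraries. The lists hold no read counts, the depth is unknown, and the absence of a peak does not show that the mark is absent.

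Androgens are made from cholesterol in a chain of enzymes that is most active in the testis and adrenal gland. CYP11A1 cuts the side chain of cholesterol to give pregnenolone, CYP17A1 turns pregnenolone and progesterone into the androgen precursors, and HSD3B1 or HSD3B2 converts these to the forms from which active androgens arise. HSD17B3 and AKR1C3 reduce androstenedione to testosterone, SRD5A1 and SRD5A2 reduce testosterone to dihydrotestosterone, and AKR1C1 and AKR1C2 mostly inactivate dihydrotestosterone. Prostate tumours that grow under androgen deprivation are known to use AKR1C3, HSD3B1 and SRD5A1 to make androgens from adrenal precursors. Acetylation of both lysines is found at active promoters and enhancers.

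The promoters of the 10 genes differ in sequence, and those to which the values below return are shown first. Each run is the RefSeq sequence (GRCh38.p14) of the 250 bases before the canonical transcription start site (TSS), with every CG dinucleotide in capitals. SRD5A1 and SRD5A2 are the CG-rich promoters of the set. AKR1C1 and AKR1C2 are shown because they are nearly the same sequence, and AKR1C3, HSD3B1 and CYP17A1 because their peaks differ between cell lines or between start sites.
SRD5A1 (chr5:6633190-6633439, plus strand): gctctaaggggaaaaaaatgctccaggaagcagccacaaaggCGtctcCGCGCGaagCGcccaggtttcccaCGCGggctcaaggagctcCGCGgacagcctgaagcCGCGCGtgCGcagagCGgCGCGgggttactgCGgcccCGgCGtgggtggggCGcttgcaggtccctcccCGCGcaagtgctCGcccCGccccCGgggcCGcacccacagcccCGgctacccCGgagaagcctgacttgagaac
SRD5A2 (chr2:31580939-31581188, minus strand): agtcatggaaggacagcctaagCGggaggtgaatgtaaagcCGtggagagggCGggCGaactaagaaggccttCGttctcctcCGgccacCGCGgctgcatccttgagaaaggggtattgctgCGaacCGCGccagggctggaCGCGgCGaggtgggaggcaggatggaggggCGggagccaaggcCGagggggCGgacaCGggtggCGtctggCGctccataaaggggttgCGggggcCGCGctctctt
AKR1C1 (chr10:4963165-4963414, plus strand): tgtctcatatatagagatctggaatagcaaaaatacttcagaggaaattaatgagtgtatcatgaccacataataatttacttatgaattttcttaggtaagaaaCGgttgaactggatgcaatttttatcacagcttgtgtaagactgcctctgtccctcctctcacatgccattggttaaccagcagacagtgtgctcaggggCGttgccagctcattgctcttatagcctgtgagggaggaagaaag
AKR1C2 (chr10:5003858-5004107, minus strand): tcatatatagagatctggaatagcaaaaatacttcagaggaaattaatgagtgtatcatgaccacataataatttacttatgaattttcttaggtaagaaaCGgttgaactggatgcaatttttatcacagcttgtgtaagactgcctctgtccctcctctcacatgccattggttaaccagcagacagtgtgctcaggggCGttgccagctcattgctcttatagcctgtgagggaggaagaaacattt
AKR1C3 (chr10:5094164-5094413, plus strand): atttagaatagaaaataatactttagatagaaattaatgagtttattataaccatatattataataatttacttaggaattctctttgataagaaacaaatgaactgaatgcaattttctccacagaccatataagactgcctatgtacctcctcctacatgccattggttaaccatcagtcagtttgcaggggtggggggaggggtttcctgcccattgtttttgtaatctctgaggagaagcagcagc
HSD3B1 (chr1:119506960-119507209, plus strand): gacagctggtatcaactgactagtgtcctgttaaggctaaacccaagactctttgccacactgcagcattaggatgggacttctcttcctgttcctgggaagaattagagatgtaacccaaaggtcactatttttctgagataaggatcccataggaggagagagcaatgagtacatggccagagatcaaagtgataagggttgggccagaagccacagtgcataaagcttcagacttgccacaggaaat
CYP17A1 (chr10:102837414-102837663, minus strand): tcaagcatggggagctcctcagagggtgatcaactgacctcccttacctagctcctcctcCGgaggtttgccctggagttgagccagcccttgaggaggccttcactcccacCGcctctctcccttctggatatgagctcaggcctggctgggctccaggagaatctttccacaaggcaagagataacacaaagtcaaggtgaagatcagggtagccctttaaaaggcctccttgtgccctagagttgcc

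SRD5A1 has 28 CG dinucleotides in this stretch and a GC content of 70.8%, and SRD5A2 has 23 and 66.4%. The other 8 genes have between 0 and 4, against a median of 11 over the 35116 promoters of the RefSeq table. For HSD3B2, which is not shown, the stretch used here and for the motifs lies before another annotated TSS (position 119414931). No RefSeq stretch matched its canonical TSS. SRD5A1 thus has more CG dinucleotides than 84.1% of promoters and SRD5A2 more than 74.2%. Over 246 aligned bases, AKR1C1 and AKR1C2 share 245, an identity of 99.6%, whereas AKR1C3 shares 80.6% with AKR1C1. Of the 50-base words of these promoters, 99.5% in AKR1C1 and 97.5% in AKR1C2 occur elsewhere in the genome, and 0% in the other 8 genes. Reads from the AKR1C1 and AKR1C2 promoters can therefore hardly be assigned to either gene, and the authors' filter on mapping quality can remove them.

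Short motifs were searched on both strands of the 250 bases. The CCAAT box (CCAAT) was present in 4 of the 10 promoters, AKR1C1, AKR1C2, AKR1C3 and HSD3B2, and in 32% of all promoters. AAGGTCA, the site of the steroidogenic receptors NR5A1 and NR5A2, was present in HSD3B1 alone of the 10 and in 3.44% of all promoters. TATAAA was found in HSD17B3 and in 10.7% of all promoters. The antioxidant response element TGACNNNGC was found in 0 of the 10 and in 10.9% of all promoters. A match describes these letters and is not evidence of binding.

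The promoters of most of the androgen synthesis enzymes carried no H3K27ac peak in either cell line. A promoter here spans 2000 bp before to 500 bp after every annotated TSS. Its value is that of its best peak, given as the fold enrichment over the peak caller's background. An H3K27ac promoter peak was present for 3 of 10 genes in C4-2BER (SRD5A1, CYP11A1 and HSD3B1) and for 3 of 10 in C4-2B (SRD5A1, CYP11A1 and SRD5A2), against 74.2% and 73.8% of all protein-coding genes. The other 6 genes had none. H3K18ac promoter peaks were present for 7 of 10 genes in each cell line, against 85.2% and 87.2% of all genes, and the 3 without any were AKR1C1, AKR1C2 and HSD3B2.

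The promoter folds were low beside those of other genes, with SRD5A1 as the exception. Where a peak was present, the median H3K27ac fold of all promoters was 12.5 in C4-2BER against 18.2 in C4-2B, and the median H3K18ac fold was 5.67 and 7.12. SRD5A1 lay above these medians in both cell lines and both marks. CYP11A1 came next, and the H3K18ac promoter folds of the other 5 genes with a peak lay between 2.42 and 3.42 in both cell lines.

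**Figure D1:**
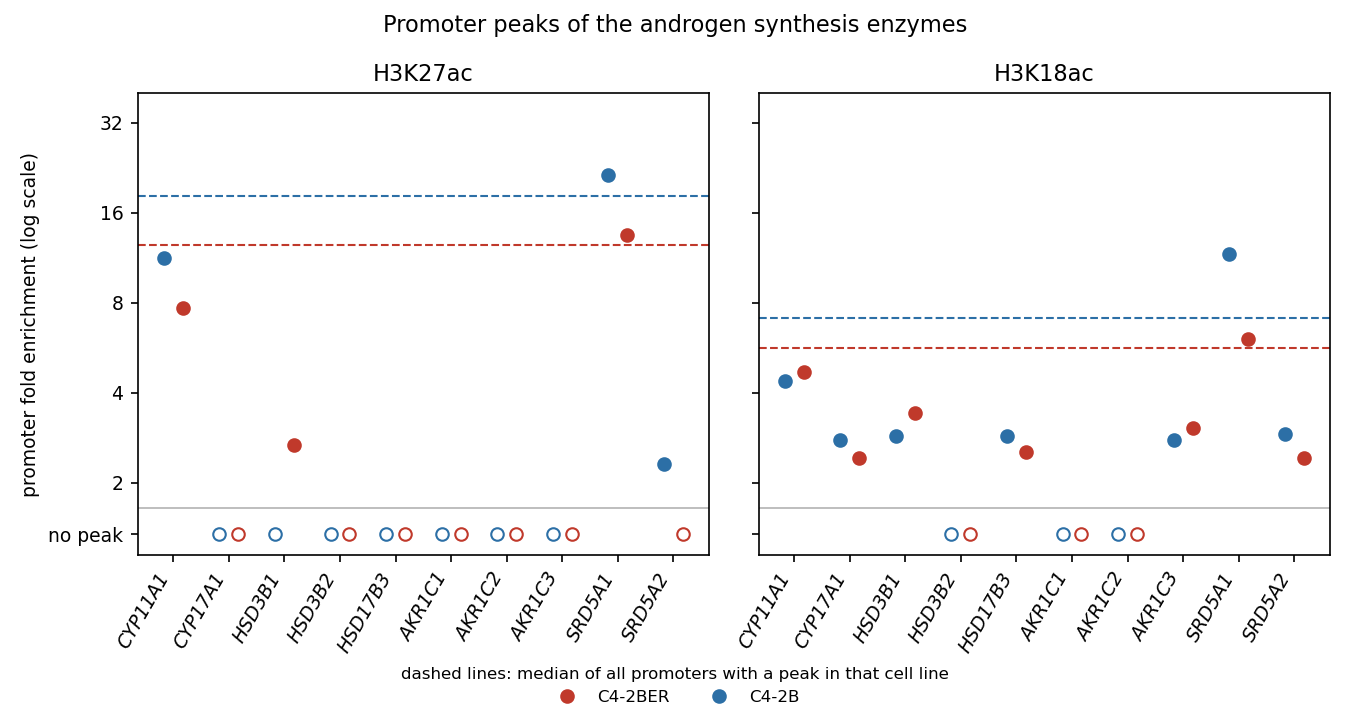
Highest fold enrichment of a promoter peak (log scale) of each gene for H3K27ac (left) and H3K18ac (right), with C4-2B in blue and C4-2BER in red, 1 value per pooled peak list; open circles mark promoters without a peak and dashed lines the medians of all protein-coding promoters with a peak. SRD5A1 is the only gene above the dashed lines, and AKR1C1, AKR1C2 and HSD3B2 have open circles throughout.

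By the rule used here, a promoter is called increased where C4-2BER alone has a peak, or where its fold is at least 2 times that of C4-2B, and decreased where the reverse holds. For H3K27ac, 1 of the 10 genes was increased (HSD3B1) and 1 decreased (SRD5A2), where 3.49% and 8.27% of all protein-coding promoters were increased and decreased. For H3K18ac, 0 were increased and 0 decreased, where the shares of all promoters were 1.92% and 5.25%. These calls take the best peak over every TSS of a gene, which can be a different site in each cell line. At the canonical TSS alone, HSD17B3 had an H3K18ac peak in C4-2BER only (fold 2.08) and CYP17A1 in C4-2B only (fold 2.79). With 10 genes, a count of 1 or 0 cannot be set apart from these shares. Both single H3K27ac calls rest on weak peaks, with a fold of 2.68 in HSD3B1 and 2.32 in SRD5A2.

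Over the whole windows, peaks were found for all 10 genes in all 4 lists. The windows held 332 peaks in all, counted once where windows overlap. There were 45 H3K27ac peaks in C4-2BER against 33 in C4-2B, and they covered 5.88% and 3.69% of the windows. H3K18ac had 137 and 117 peaks, which covered 16.9% and 14.0%. The median fold was lower in C4-2BER in both marks, at 2.83 against 3.16 for H3K27ac and 2.47 against 2.72 for H3K18ac. In the complete lists it was also lower, at 3.31 against 3.47 and 2.55 against 2.74.

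Peaks that overlapped between C4-2BER and C4-2B were joined to a region, and the same calls were made from the length-weighted mean fold. Of 54 H3K27ac regions in the windows, 22 were increased (40.7%) and 10 decreased (18.5%), where 30.5% and 22.7% of all H3K27ac regions were. Of 159 H3K18ac regions, 48 were increased (30.2%) and 29 decreased (18.2%), where 26.2% and 23.5% of all were. All of the increased regions had a peak in C4-2BER only, and 9 of the 10 decreased H3K27ac regions and all 29 decreased H3K18ac regions had a peak in C4-2B only. Among regions with a peak in both cell lines, 11 of 23 for H3K27ac and 36 of 82 for H3K18ac were higher in C4-2BER, against 36.2% and 32.6% over the complete lists. The median log2 ratio of these shared regions was -0.04 for H3K27ac and -0.06 for H3K18ac, close to the -0.17 and -0.12 of all shared regions.

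Base composition moved with the calls. The median GC content of H3K27ac regions with a peak in C4-2BER only was 49.5%, and that of regions with a peak in C4-2B only was 59.2%. For H3K18ac the medians were 48.4% and 53.3%. The same order held over the complete lists, with 49.7% against 55.6% in H3K27ac and 49% against 54.9% in H3K18ac. The part of base composition in the counts was not tested. A region called increased in both marks at overlapping positions was seen 4 times, 2 at the AKR1C genes and 2 at SRD5A1, and a region decreased in both marks once, at SRD5A1. The share of such joint calls over the complete lists was not computed, so these counts have no background and no reading is drawn from them.

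**Figure D2:**
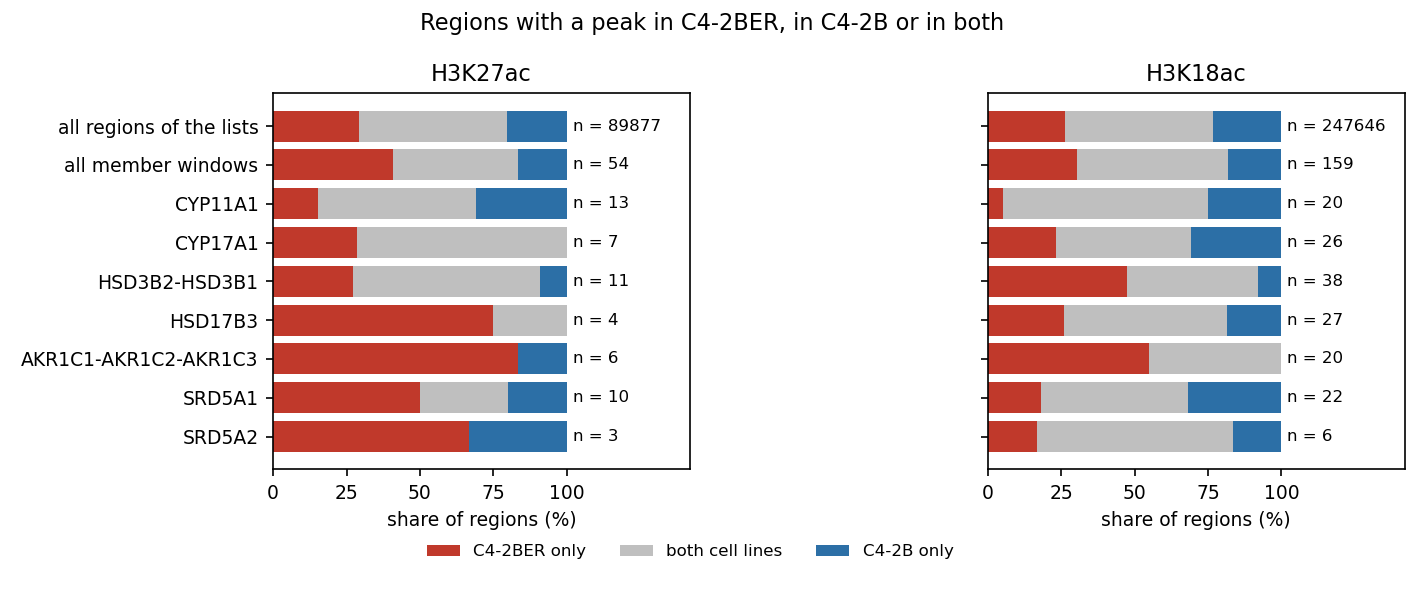
Share of regions with a peak in C4-2BER only (red), in both cell lines (grey) and in C4-2B only (blue) for H3K27ac (left) and H3K18ac (right), for all regions of the lists, for all windows and for each locus, with the number of regions (n) at the end of each bar. The AKR1C genes hold 11 H3K18ac regions of C4-2BER only and 0 of C4-2B only, whereas CYP11A1 holds 1 and 5. Over all H3K18ac regions the shares are 26.1% and 23.3%.

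CYP11A1, the enzyme of the first step, had the widest H3K18ac coverage of the 10 windows in both cell lines, and H3K18ac was lower in C4-2BER for most shared regions. H3K18ac peaks covered 58.8% of its window in C4-2B, more than for 93.3% of all genes, and 40.4% in C4-2BER, more than for 88.3%. Of 14 shared H3K18ac regions, 2 were higher in C4-2BER, against 32.6% of all shared H3K18ac regions. A further 5 regions had a peak in C4-2B only and 1 in C4-2BER only, where 23.3% and 26.1% of all H3K18ac regions did. Of 13 H3K27ac regions, 7 were shared, 4 were in C4-2B only and 2 in C4-2BER only, beside 20.3% and 29.1% of all H3K27ac regions.

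The promoter value of CYP11A1 came from an internal TSS and not from the canonical TSS. Over the internal TSS at position 74359603 of chromosome 15, the H3K27ac peak had a fold of 7.66 in C4-2BER (chr15:74359233-74360942) and 11.3 in C4-2B (chr15:74359032-74361032). The H3K18ac fold there was 4.70 in C4-2BER against 4.39 in C4-2B, so the marks differed in direction. At the canonical TSS, the H3K27ac fold was 2.26 in C4-2BER against 2.16 in C4-2B, and the H3K18ac fold 2.62 and 3.00. The highest peak of the window lay 6.65 kb upstream of the canonical TSS, over the promoter of the lncRNA ENSG00000274937. Its H3K27ac fold was 20.7 in C4-2B and 11.8 in C4-2BER, and the H3K18ac fold of the peaks over it was 7.74 and 4.33, where the C4-2BER H3K18ac peak was wider.

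CYP17A1, the hydroxylase and lyase that abiraterone inhibits, had no H3K27ac peak within its gene body or promoter in either cell line. The nearest H3K27ac peak lay 16395 bp from the canonical TSS in C4-2BER against 16384 bp in C4-2B. H3K18ac peaks with folds of 2.17 to 2.79 were spread over the gene. A peak of 460 bp over the canonical TSS was present in C4-2B only, with a fold of 2.79 (chr10:102837148-102837607). In C4-2BER the nearest H3K18ac peak to that TSS was 1465 bp away. Its promoter still counts as marked in both cell lines, because a peak near an internal TSS had a fold of 2.42 in C4-2BER against 2.24 in C4-2B.

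The stronger acetylation of the CYP17A1 window belonged to its neighbours and was higher in C4-2BER. The top peak, over the promoters of BORCS7, BORCS7-ASMT and ENSG00000282772 and 16.9 kb upstream of CYP17A1, had an H3K27ac fold of 19.4 in C4-2BER against 14.4 in C4-2B. Its H3K18ac fold was 7.79 and 5.47. Of 5 shared H3K27ac regions in the window, 4 were higher in C4-2BER, with a median log2 ratio of 0.50, against 36.2% of all shared regions. Another 2 of the 7 H3K27ac regions had a peak in C4-2BER only, as did 29.1% of all. The largest ratio of the shared regions lay 54.8 kb downstream of the TSS, at 5.07 in C4-2BER against 2.92 in C4-2B. For H3K18ac, 6 of 26 regions were in C4-2BER only against 8 in C4-2B only, near the 26.1% and 23.3% of all H3K18ac regions.

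HSD3B1, the peripheral form of the enzyme that opens the way from adrenal precursors to dihydrotestosterone, had a promoter-proximal peak of H3K27ac in C4-2BER only. It spanned 1411 bp (chr1:119507325-119508735), began 115 bp downstream of the canonical TSS and had a fold of 2.68 and a −log10 q-value of 4.88. In C4-2B the nearest H3K27ac peak was 8842 bp away. The H3K18ac peak at the same place had a fold of 3.42 in C4-2BER against 2.87 in C4-2B, and it was 2442 bp wide in C4-2BER and 245 bp wide in C4-2B. The fold differed little in H3K18ac, and the width differed more.

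The strongest H3K27ac peaks near HSD3B1 were present in both cell lines and narrower in C4-2B. At 35.0 kb downstream of the TSS, the H3K27ac fold was 4.11 over 4491 bp in C4-2BER and 3.96 over 390 bp in C4-2B. At 31.0 kb upstream, it was 3.94 over 751 bp in C4-2BER and 4.65 over 368 bp in C4-2B. The highest H3K18ac fold of the HSD3B1 window was at this upstream site, with 5.91 in C4-2B and 3.48 in C4-2BER. H3K18ac peaks covered 19.7% of the HSD3B1 window in C4-2BER against 4.90% in C4-2B.

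HSD3B2, the form of the adrenal gland and gonads, had no peak at its promoter in any list. The nearest H3K18ac peak to its canonical TSS was 6573 bp away in C4-2BER against 18519 bp in C4-2B, and the nearest H3K27ac peak was 22965 bp and 24399 bp away. The stronger peaks of its window lay upstream, around the promoter of HAO2, an oxidase of hydroxy acids. The peak over the HAO2 promoter had an H3K27ac fold of 7.63 in C4-2BER against 9.55 in C4-2B and an H3K18ac fold of 4.53 and 5.16.

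Over HSD3B2 and HSD3B1 together, H3K18ac regions were more often in C4-2BER only. Of 38 regions, 18 had a peak in C4-2BER only, 3 in C4-2B only and 17 in both, and 10 of the 17 were higher in C4-2BER. For H3K27ac, 3 of 11 regions were in C4-2BER only against 1 in C4-2B only, where 29.1% and 20.3% of all H3K27ac regions were. The median fold of the 35 H3K18ac peaks of C4-2BER was 2.51, beside 2.55 over its complete H3K18ac list. With only peaks of a −log10 q that reached 5, 5 of 12 H3K18ac regions were increased and 0 decreased, where 34.2% and 12.7% of all H3K18ac regions were at this setting. With the highest-fold peaks in equal number, 7 of 17 were increased and 0 decreased, where 29% and 25.6% of all were. With only peaks of a fold of at least 4, the order turned, with 2 of 6 increased and 3 decreased, where 19.1% and 24.2% of all were. With so few regions, these counts cannot be set apart from the shares of all regions.

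**Figure D3:**
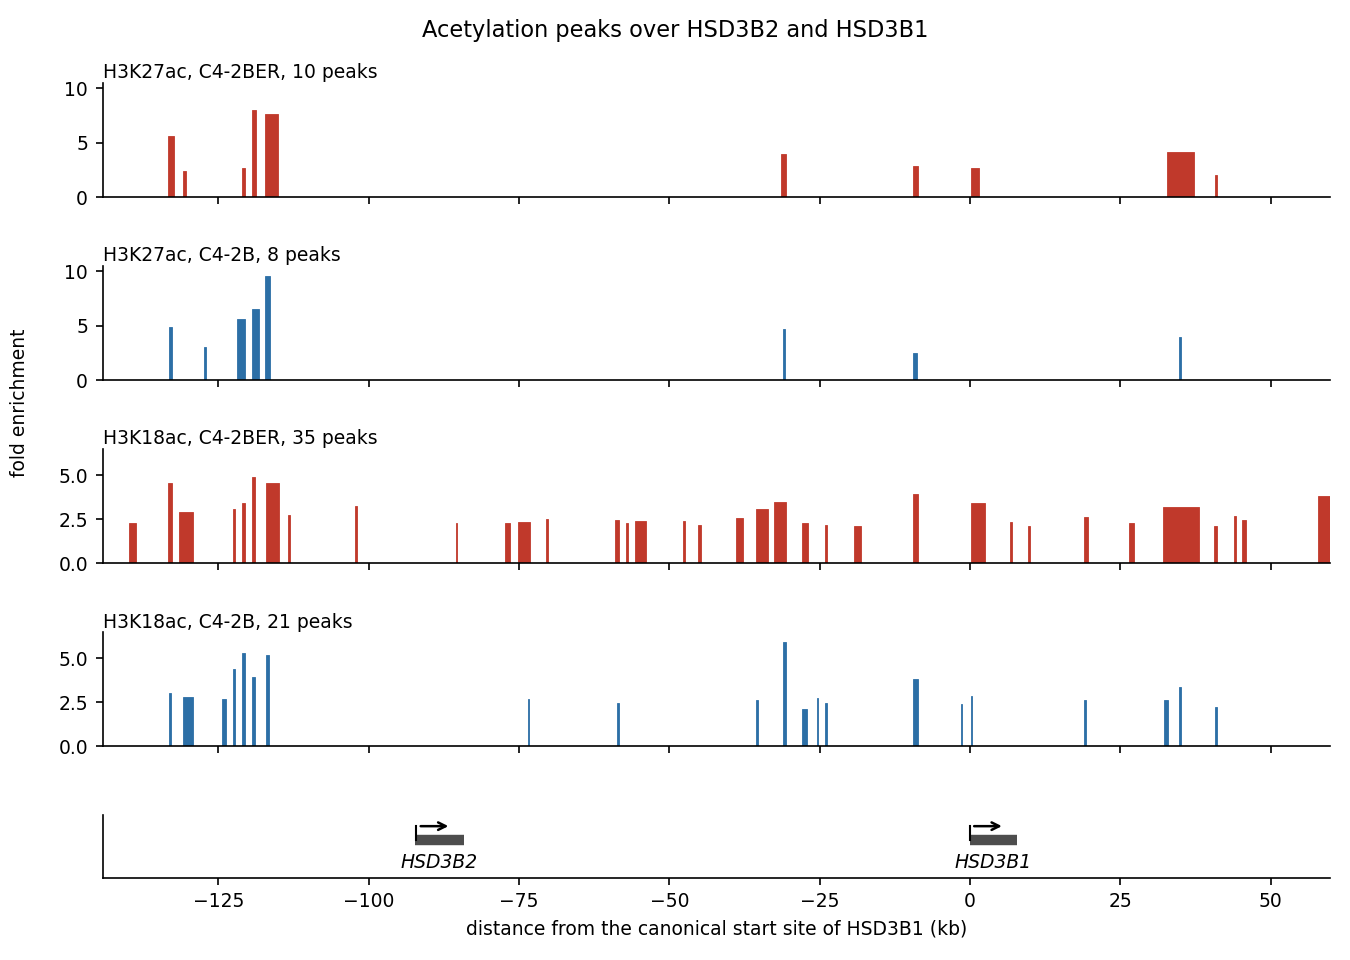
Peaks over HSD3B2 and HSD3B1 in the 4 lists, drawn to scale by distance from the canonical TSS of HSD3B1 (kb), with bar height the fold enrichment, bar width the peak width, grey bars the genes and arrows their canonical TSS. There are 35 H3K18ac peaks in C4-2BER against 21 in C4-2B, and the H3K27ac peak at the HSD3B1 TSS is present in C4-2BER only.

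HSD17B3, the testis enzyme that makes testosterone from androstenedione, had no H3K27ac peak over its gene body in either cell line. The nearest H3K27ac peak to its canonical TSS was 17489 bp away in C4-2BER against 71324 bp in C4-2B. An H3K18ac peak 81 bp from that TSS was present in C4-2BER only, with a fold of 2.08. Its promoter values, a fold of 2.54 in C4-2BER against 2.87 in C4-2B, came from an internal TSS at position 96244351 of chromosome 9.

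The highest peak of the HSD17B3 window lay downstream of the gene and overlapped no annotated promoter. It began 16193 bp past the gene end in C4-2BER (chr9:96216325-96219113). Its H3K27ac fold was 9.27 in C4-2BER against 12.2 in C4-2B, where it was the only H3K27ac peak of the window. The H3K18ac fold there was 4.31 and 4.88. The other 3 H3K27ac regions of the window were in C4-2BER only, as were 29.1% of all H3K27ac regions, with folds of 2.40, 2.43 and 2.71.

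AKR1C1, AKR1C2 and AKR1C3 lie side by side on chromosome 10, with 4492 bp between the first pair and 17323 bp between AKR1C2 and AKR1C3. No peak of either mark at these genes had a fold above 3.84. H3K27ac was weak, with a median fold of 2.80 for C4-2BER, below the 3.31 of its complete list. The single H3K27ac peak of C4-2B had a fold of 2.61, below a list median of 3.47. H3K18ac was not weaker than elsewhere. Its median fold for C4-2BER was 2.65, beside 2.55 over the complete list, and for C4-2B 2.89 beside 2.74. More sites had a peak in C4-2BER. There were 5 H3K27ac peaks in C4-2BER against 1 in C4-2B, and no H3K27ac region was shared. Of 20 H3K18ac regions, 11 were in C4-2BER only, 9 in both and 0 in C4-2B only. H3K18ac peaks covered 9.79% of the locus in C4-2BER against 2.87% in C4-2B. With only peaks of a fold of at least 4, 0 regions of either mark were left. With the highest-fold peaks in equal number, 0 H3K27ac regions were left. At that setting 7 of 13 H3K18ac regions were increased and 1 decreased, where 29% and 25.6% of all were. With only peaks of a −log10 q that reached 5, 1 H3K27ac and 4 H3K18ac regions were left, of which 1 and 3 were increased and 0 and 1 decreased, too few to set beside the 28.4% (H3K27ac) and 34.2% (H3K18ac) increased among all regions at this setting.

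The strongest C4-2BER peak of H3K27ac at these genes lay over the last part of AKR1C1 (chr10:4981777-4984152), with a fold of 3.12 and a −log10 q-value of 8.32. C4-2B had no H3K27ac peak there. H3K18ac at the same place had a fold of 3.80 over 3679 bp in C4-2BER and 2.47 over 1391 bp in C4-2B. The other 4 H3K27ac peaks of C4-2BER had folds from 2.23 to 2.83. The single H3K27ac peak of C4-2B lay 2432 bp upstream of the first TSS of AKR1C3 (chr10:5032513-5032922), with a fold of 2.61. H3K18ac was present at that site in both cell lines, with a fold of 3.84 in C4-2B, the highest of the locus, and 2.55 in C4-2BER.

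No peak was found at the promoters of AKR1C1 and AKR1C2, whose products inactivate dihydrotestosterone. The nearest H3K27ac peak was 18362 bp from the canonical TSS of AKR1C1 and 5164 bp from that of AKR1C2 in C4-2BER, and 69098 bp and 28656 bp in C4-2B. Repeated sequence is common here. Of the 50-base words, 37.2% in the AKR1C1 body, 32.3% in the AKR1C2 body and 9.93% in the AKR1C3 body occur elsewhere in the genome, against 2.61% to 8.61% in the other 7 gene bodies. In the promoter windows the share was 27.2% for AKR1C1 and 20.3% for AKR1C2, so most of each window is unique sequence. Peaks at AKR1C1 and AKR1C2 are therefore uncertain, and the part of repeated sequence in the absence of promoter peaks was not tested.

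AKR1C3, the reductase that makes testosterone in prostate tissue, had H3K18ac at or near its upstream start sites and not at its canonical TSS. GENCODE places the first TSS of AKR1C3 59060 bp before the canonical TSS. At the first TSS, a narrow H3K18ac peak had a fold of 3.03 in C4-2BER against 2.78 in C4-2B. The H3K18ac peak nearest the start site at position 5048789 was 1923 bp away in C4-2BER, with a fold of 3.05. In C4-2B the overlapping peak had a fold of 2.89 and was 2867 bp away, outside that promoter window. The joined region was called neither increased nor decreased. The nearest H3K18ac peak to the canonical TSS was 13526 bp away in C4-2BER against 15238 bp in C4-2B. H3K27ac peaks within the gene were found in C4-2BER only, at 2 sites with folds of 2.65 and 2.80.

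**Figure D4:**
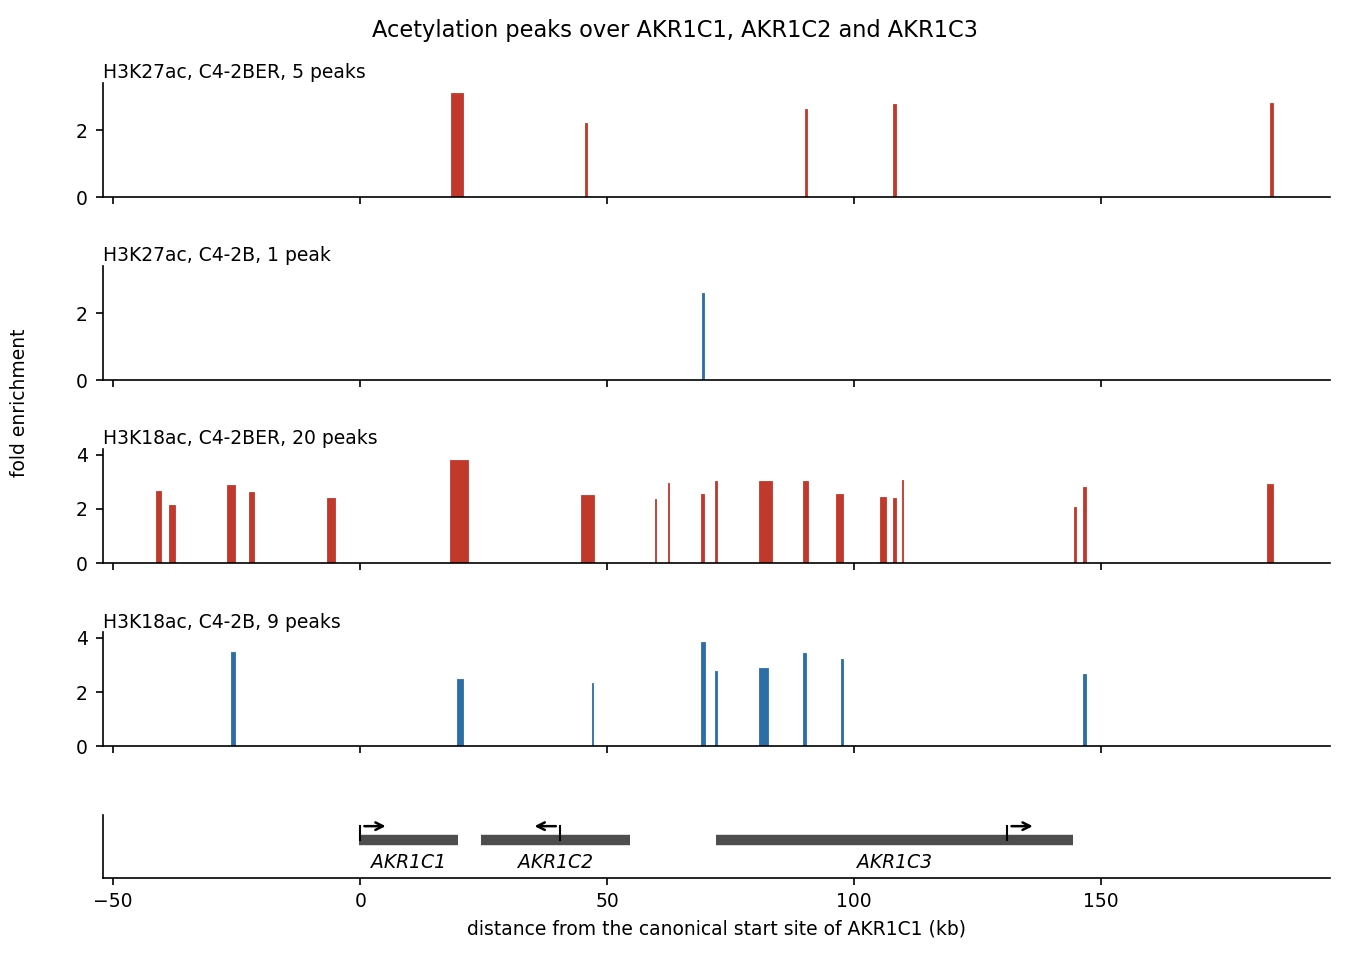
Peaks over AKR1C1, AKR1C2 and AKR1C3 in the 4 lists, drawn to scale by distance from the canonical TSS of AKR1C1 (kb), with bar height the fold enrichment, bar width the peak width, grey bars the genes and arrows their canonical TSS. C4-2BER has 5 H3K27ac and 20 H3K18ac peaks and C4-2B has 1 and 9, all with a fold of at most 3.84.

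SRD5A1, the reductase that predominates in castration-resistant tumours, had the strongest promoter of the set, and its fold was lower in C4-2BER in both marks. The H3K27ac fold was 13.5 in C4-2BER (chr5:6631390-6638104) and 21.3 in C4-2B (chr5:6632239-6637796), a log2 ratio of -0.66. The median log2 ratio over all promoters with a peak in both cell lines was -0.51. The H3K18ac promoter fold was 6.06 in C4-2BER against 11.6 in C4-2B, a log2 ratio of -0.93 beside a median of -0.33 over all promoters. In C4-2BER that value is the mean of a single peak of 5942 bp, whereas in C4-2B the same stretch held 2 peaks, with folds of 11.6 and 6.12. Taken over the whole region, the log2 ratio of H3K18ac was -0.54. With the C4-2BER folds rescaled by a robust line, the promoter log2 ratios shrank to -0.24 for H3K27ac and -0.71 for H3K18ac. SRD5A1 begins 136 bp from the start of the divergent gene NSUN2, an RNA methyltransferase, and the peak cannot be assigned to either gene.

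Away from the promoter, SRD5A1 had H3K27ac sites in C4-2BER that C4-2B lacked. An intronic peak 7.64 kb downstream of the TSS (chr5:6640435-6641732) had an H3K27ac fold of 4.43 and a −log10 q-value of 13.2 in C4-2BER, and C4-2B had none. The H3K18ac fold there was 4.30 in C4-2BER, and C4-2B had no peak in either mark. The 200 bases around the middle of this peak are shown because it was the strongest C4-2BER-only H3K27ac peak within any of the 10 genes, again with CG in capitals (GRCh38).
SRD5A1 intronic peak centre (chr5:6640984-6641183, plus strand): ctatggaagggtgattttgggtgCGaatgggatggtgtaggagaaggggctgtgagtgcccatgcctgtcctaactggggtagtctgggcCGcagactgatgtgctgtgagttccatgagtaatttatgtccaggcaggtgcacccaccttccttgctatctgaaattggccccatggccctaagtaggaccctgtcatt

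These 200 bases have 2 CG dinucleotides and a GC content of 53.5%. The forkhead site TGTTTAC does not occur in them on either strand. Among the same 200 bases of all 72971 H3K27ac peaks of C4-2BER, the share with these letters was 3.39%.

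At 2 further sites of the SRD5A1 window, H3K27ac was present in C4-2BER only and H3K18ac in both cell lines. At 36.0 kb, near the 3′ end of the gene, the H3K27ac fold was 3.53 in C4-2BER, and the H3K18ac fold was 5.01 in C4-2BER against 2.83 in C4-2B. At 71.2 kb, downstream of the gene, the H3K27ac fold was 4.62, and the H3K18ac fold was 4.40 in C4-2BER against 2.84 in C4-2B. C4-2B in turn had H3K27ac peaks that C4-2BER lacked at 2 sites of the window, with folds of 2.48 and 2.29. In all, 5 of 10 H3K27ac regions were in C4-2BER only against 2 in C4-2B only, where 29.1% and 20.3% of all H3K27ac regions were. For H3K18ac, 4 of 22 were in C4-2BER only against 7 in C4-2B only, where 26.1% and 23.3% of all were. The highest peak of the window, at the TENT4A promoter, had an H3K27ac fold of 40.7 in C4-2B and 20.7 in C4-2BER.

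**Figure D5:**
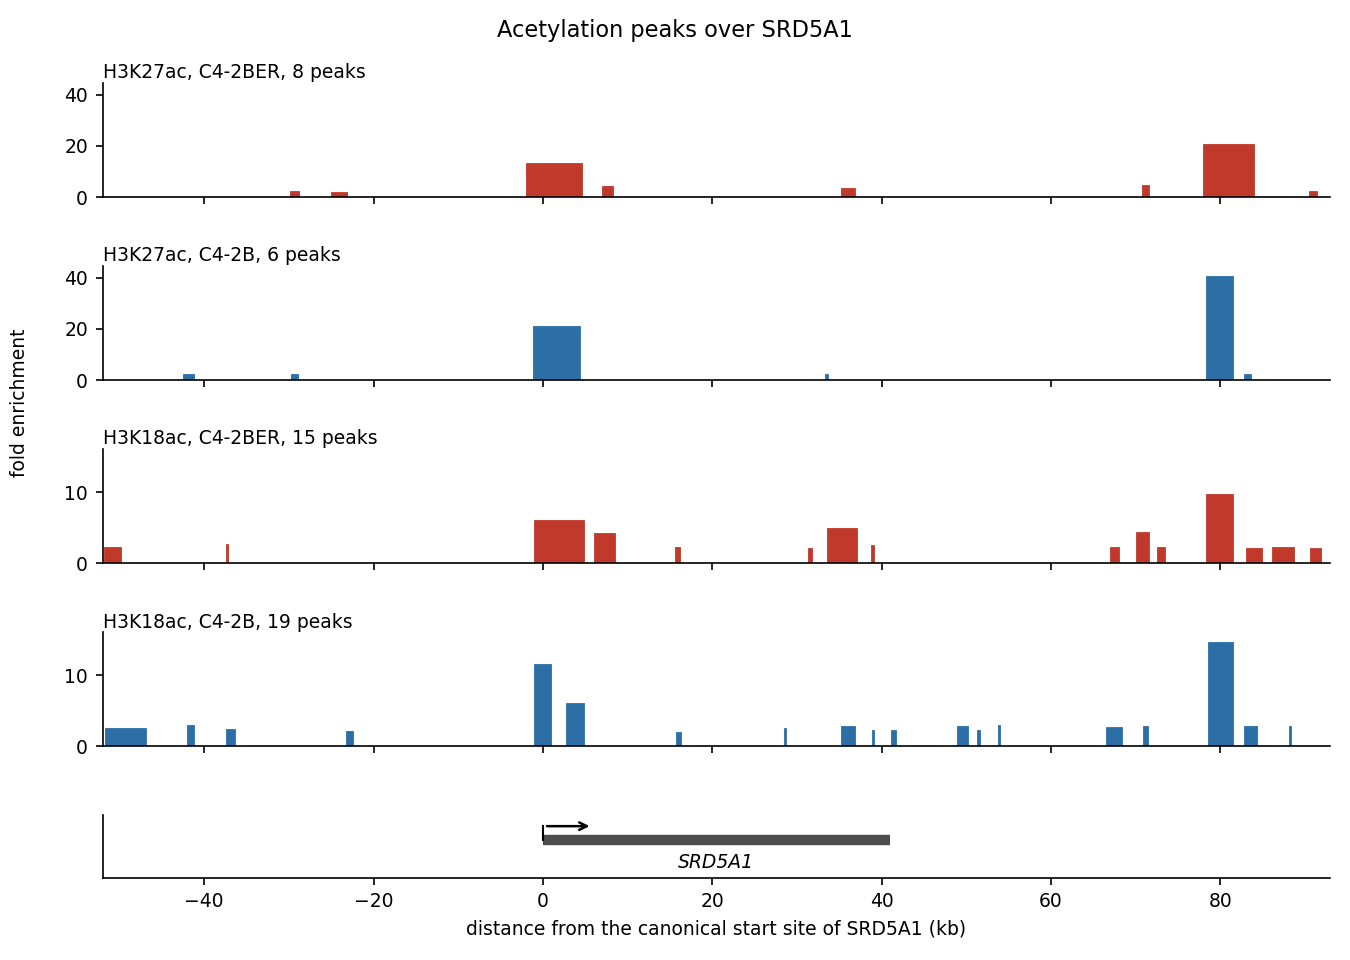
Peaks over SRD5A1 in the 4 lists, drawn to scale by distance from its canonical TSS (kb), with bar height the fold enrichment, bar width the peak width, the grey bar the gene and the arrow its canonical TSS. The promoter bar is lower in C4-2BER in both marks, and H3K27ac bars at 7.64, 36.0 and 71.2 kb stand in C4-2BER only.

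SRD5A2, the reductase of the normal prostate, had sparse acetylation. Its window held 2 H3K27ac peaks in C4-2BER against 1 in C4-2B, and 5 H3K18ac peaks in each cell line. H3K18ac peaks covered 2.55% of the window in C4-2BER against 2.97% in C4-2B, more than for 11.3% and 15.4% of all genes. A weak H3K27ac peak lay over the promoter in C4-2B only, with a fold of 2.32 (chr2:31580584-31581517) and a −log10 q-value of 1.19. The H3K18ac fold at the promoter was 2.42 in C4-2BER against 2.91 in C4-2B. The CG-rich promoters of SRD5A1 and SRD5A2 thus differed widely in acetylation, with an H3K27ac fold of 21.3 and 2.32 in C4-2B. An intronic site 52.0 kb from the TSS had H3K27ac in C4-2BER only, with a fold of 3.09, and an H3K18ac fold of 4.04 in C4-2BER against 2.44 in C4-2B.

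Another 36 genes of steroid metabolism are enzymes of steroid synthesis and inactivation, their cofactors, and proteins of cholesterol supply. Their shares of increased and decreased promoters were below those of all promoters for H3K27ac and above them for H3K18ac. Each share rests on 1 to 5 genes. H3K27ac promoter peaks were present for 24 in C4-2BER against 26 in C4-2B, with 1 increased (2.78%) and 2 decreased (5.56%), beside the 3.49% and 8.27% of all promoters. H3K18ac promoter peaks were present for 30 and 32, with 2 increased (5.56%) and 5 decreased (13.9%), beside 1.92% and 5.25%. HSD17B14, a steroid dehydrogenase, was the increased gene for H3K27ac, with a promoter fold of 9.43 in C4-2BER against 3.78 in C4-2B. DHRS9, a retinol and steroid dehydrogenase, was decreased in both marks. Its H3K27ac promoter fold was 11.6 in C4-2B with no peak in C4-2BER, and its H3K18ac promoter fold was 3.37 in C4-2BER against 6.82 in C4-2B. The other decreased gene for H3K27ac was NR5A1, a receptor that activates steroidogenic genes, with a promoter fold of 2.22 in C4-2B only, and it is named beyond the limit of 8 genes because it completes this count. The remaining calls rest on H3K18ac peaks present in a single cell line. AKR1C4, the liver member of the AKR1C family, and CYP19A1, the aromatase, had promoter folds of 2.3 and 2.67 in C4-2BER only. The adrenal enzymes CYP21A2, CYP11B1 and CYP11B2 and the repressor NR0B1 had promoter folds of 2.33 to 2.51 in C4-2B only.

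Marker genes gave the setting of these values. All 9 prostate luminal markers had promoter peaks in the 4 lists, with none increased or decreased. Of 6 neuroendocrine markers, 3 had an H3K27ac promoter peak in C4-2BER against 2 in C4-2B. Markers of steroidogenic adrenal or gonadal cells had an H3K27ac promoter peak for 1 of 5 in C4-2BER (STAR, with a fold of 2.16) and 2 of 5 in C4-2B (STAR with 2.46 and NR5A1 with 2.22). For H3K18ac these were 2 of 5 against 5 of 5, where 85.2% and 87.2% of all protein-coding genes had an H3K18ac promoter peak. Of these 5 genes 3 were decreased, namely CYP11B1, CYP21A2 and MC2R, whose folds in C4-2B were 2.5 to 2.86. Over all promoters 5.25% were decreased for H3K18ac. STAR, NR5A1, CYP11B1 and CYP21A2 also belong to the genes of steroid metabolism above, so their calls are the same values shown again. None of 3 leukocyte markers and 1 of 3 fibroblast markers had an H3K27ac promoter peak in either cell line.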

How the data were processed

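H3K27ac and H3K18ac ChIP-Seq libraries of C4-2B and C4-2BER were aligned by the authors to GRCh38 with bowtie2. Blacklisted regions, alignments with a mapping quality under 10 and duplicates were removed, replicates were merged, and peaks were called with macs2, whose settings are not given in the sources used here. The submitters' processing notes name Bowtie2 2.2.3, Trimmomatic 0.33 and bcl2fastq 2.17. In the 4 deposited lists, the columns used were the fold enrichment (a ratio of signal to local background) and the −log10 q-value. Backgrounds were set separately in each list and can differ between cell lines, which enters every comparison of folds.

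No peak passed the end of a GRCh38 chromosome (0 of 537404). TSS came from GENCODE release 44, promoter sequences from RefSeq, which held all 10 genes. The RefSeq start matched the canonical TSS for every gene but HSD3B2, where another annotated TSS was used. The named genes were the 10 enzymes, up to 8 genes of the steroid list with an increased or decreased promoter, a further gene (NR5A1) added after its values were seen, and genes whose promoter lies under the highest peak of a window. The genes and lists were chosen with earlier results of these data known. Scripts were tested on simulated data, where 200 of 200 regions planted per kind of change were found. Python 3.11.15, numpy 2.4.6 and pandas 2.3.3 were used. Some items are not reported here.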

Additional observations from a re-analysis of the deposited data

How the results depend on the processing

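No paired analysis was possible because the replicates were merged before peaks were called, and no library could be left out for the same reason. The promoter log2 ratios of single genes kept their sign in 45 of the 47 recomputations where both cell lines still had a promoter peak. Both exceptions were CYP11A1 with the canonical TSS only, at 0.07 for H3K27ac and -0.19 for H3K18ac. At that setting HSD17B3, CYP17A1 and AKR1C3 had no H3K18ac ratio, because a peak in both cell lines was lacking. The increased and decreased promoter calls were not recomputed. With the C4-2BER folds rescaled by a robust line, the log2 ratio of SRD5A1 went from -0.66 to -0.24 for H3K27ac and from -0.93 to -0.71 for H3K18ac, and that of CYP11A1 from -0.56 to -0.30 and from 0.10 to 0.28. The region counts depended on which peaks were kept and on the flank. Increased and decreased H3K27ac regions numbered 22 and 10 as reported, 5 and 2 of 18 with a fold of at least 4 (19.9% and 19.3% of all regions), 8 and 3 of 25 where −log10 q reached 5 (28.4% and 14.9%), 6 and 2 of 21 with the highest-fold peaks in equal number (20.5% and 20.4%), 10 and 4 of 19 with 10 kb to each side, and 35 and 22 of 93 with 100 kb. For H3K18ac they numbered 48 and 29 as reported, and 6 and 4 of 18 (19.1% and 24.2%), 15 and 3 of 33 (34.2% and 12.7%), 28 and 22 of 80 (29% and 25.6%), 23 and 13 of 74, and 79 and 55 of 261 in the same order. The first 3 of these settings keep fewer peaks, and the last 2 change the stretch examined. Genes with an H3K18ac promoter peak numbered 7 in each cell line as reported. With a fold of at least 4 they numbered 2 in each, where −log10 q reached 5 they numbered 4 in C4-2BER against 2 in C4-2B, and with equal numbers of peaks 4 in C4-2BER against 7 in C4-2B. Rescaling of C4-2BER, another overlap, another ratio, peaks of 1 cell line only, the highest peak of a region and other promoter windows left the counts within 1.5 times. Depth is unknown, so weak peaks present in 1 list only are the least certain values.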
